A study of Mus musculus with 24 samples.

Results

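Macrophage genes were followed through 24 RNA-seq libraries of mouse blood progenitors sorted as LSK cells (lineage-negative, Sca-1+, KIT+). The 39 genes were taken by symbol from a named list that joins Kupffer cell, erythroblastic island and general macrophage markers, and all 39 were found among the 55487 distinct Ensembl IDs of the count table. The study asked how MLL::ENL, a human leukaemia fusion gene carried here as a Tet-off transgene (ME), acts when it is switched on before or after birth. Each of the 6 groups held 4 libraries, described as biological replicates, and the design text names the sort as lineage-negative KIT+ progenitors where the sample titles say LSK. The newborn (P0) groups are wild-type liver cells (P0 WT) or liver cells with ME induced at E10.5 (P0 ME). The groups taken at postnatal day 28 (P28) are marrow cells of wild type (P28 WT), with ME induced at E10.5, with ME induced at P0, and a group labelled ME RLT Vav Txp, also induced at E10.5. The labels do not expand RLT Vav Txp, its libraries are numbered here 1 to 4 in listed order, and the promoter behind the transgene, the strain and the sex are not given in the sources used here. All liver is P0 and all marrow is P28, and therefore age and tissue cannot be told apart.

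Macrophages of the body's organs share a core of genes that depend on the CSF1 receptor and serve uptake and digestion of particles, among them the C1q chains, the F4/80 antigen and lysosomal proteases. Kupffer cells, the macrophages of liver sinusoids, add a set of receptors such as Clec4f and Vsig4 that face the blood. Macrophages at the centre of erythroblastic islands hold maturing red cells through VCAM1, engulf expelled nuclei and return iron through ferroportin, and those of spleen and marrow depend on the transcription factor Spi-C. LSK cells are stem and progenitor cells and are not macrophages. In bulk RNA, fewer cells of a type and less RNA per cell cannot be told apart.

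RefSeq upstream windows (GRCm38.p6) were matched to 27 of the 39 genes. The 4 printed here belong to a neighbouring pair of C1q genes whose levels moved together and to Clec4f and Spic, whose levels divided the P0 libraries from the RLT Vav Txp libraries. They span the 250 bases before the RefSeq table's transcription start, all on the minus strand: C1qb at chr4:136886201-136886450, C1qc at chr4:136892915-136893164, Clec4f at chr6:83656117-83656366 and Spic at chr10:88683024-88683273. In GENCODE the genes of 3 reach further upstream, so the Spic window lies wholly inside its gene and the C1qc and Clec4f windows partly. Capitals mark matches, on either strand, to GAGGAA (core of PU.1 and Spi-C sites), TGCTGA (part of a MAF site), CATGTG (an E-box used by MITF and TFE factors), CACGTG (the palindromic E-box) and TTGCNNAA (C/EBP).
C1qb: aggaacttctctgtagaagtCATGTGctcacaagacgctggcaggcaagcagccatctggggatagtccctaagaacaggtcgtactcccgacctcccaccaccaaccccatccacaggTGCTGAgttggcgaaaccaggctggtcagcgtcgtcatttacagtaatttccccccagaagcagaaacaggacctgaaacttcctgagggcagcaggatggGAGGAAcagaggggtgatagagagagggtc
C1qc: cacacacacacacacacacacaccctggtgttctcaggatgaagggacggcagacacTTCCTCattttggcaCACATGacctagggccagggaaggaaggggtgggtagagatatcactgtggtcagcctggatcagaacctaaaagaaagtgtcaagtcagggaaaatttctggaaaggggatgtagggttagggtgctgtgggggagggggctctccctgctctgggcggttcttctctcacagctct
Clec4f: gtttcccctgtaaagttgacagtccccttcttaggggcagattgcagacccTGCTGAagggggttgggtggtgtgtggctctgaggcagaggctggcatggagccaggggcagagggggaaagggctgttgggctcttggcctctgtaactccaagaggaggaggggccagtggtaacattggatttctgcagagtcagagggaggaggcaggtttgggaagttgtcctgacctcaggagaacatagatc
Spic: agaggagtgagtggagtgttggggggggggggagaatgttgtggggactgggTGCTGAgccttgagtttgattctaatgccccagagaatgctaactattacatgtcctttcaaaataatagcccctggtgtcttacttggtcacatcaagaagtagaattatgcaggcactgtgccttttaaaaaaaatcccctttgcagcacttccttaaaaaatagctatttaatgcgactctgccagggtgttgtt
Both C1q windows held GAGGAA and CATGTG, and C1qb also held TGCTGA. In Clec4f and Spic the only match was a single TGCTGA. Over all 32851 windows of this length, GAGGAA was found in 23.3%, TGCTGA in 16.1%, CATGTG in 12.3%, TTGCNNAA in 9.56% and CACGTG in 6.02%. Of the 27 members with a window, 14 held GAGGAA, 9 held TGCTGA, 6 held CATGTG, 2 held TTGCNNAA and 1 held CACGTG. A match describes letters only, and binding was not measured.

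Library totals ran from 31233688 to 89774511 counts, and values are CPM, that is counts scaled to library size, after TMM scaling. Kit and Ly6a, which code for KIT and Sca-1, were detected in all 24 libraries, at 169 to 1450 CPM and 71.2 to 337 CPM. Library 1 of P0 WT and library 1 of P0 ME stood apart: the 39 genes summed to 1540 and 1100 CPM there, against 6330 to 9420 CPM in the other 6 P0 libraries. Library 2 of the RLT Vav Txp group summed to 4950 CPM, against 11700 to 16000 CPM in the other 3. The 12 libraries of the other P28 groups summed to 887 to 1650 CPM.

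Macrophage genes were high in the RLT Vav Txp marrow libraries and in most newborn liver libraries, and low in the remaining marrow libraries. Against P28 WT, 33 of 39 members rose in RLT Vav Txp and none fell, where 2.64% of the 23059 genes tested were called higher (edgeR quasi-likelihood F-test, Benjamini-Hochberg adjusted p under 0.05). The median log2 fold change of the 39 was 4.02, beside 0.01 over all genes tested. Against P28 ME induced at E10.5, which shares age, tissue and time of induction, 37 of 39 rose beside 8.5% of all genes, with a median log2 fold change of 4.77 beside 0.12. All 39 genes passed the filter on low counts, some only through the groups where they were high. Of the 29 members that reached the filter's level in every library of both RLT Vav Txp and P28 WT, 25 rose. By role, the rises against P28 WT took in 4 of 7 Kupffer genes, 7 of 8 iron and island genes, 13 of 14 general macrophage genes, 4 of 5 genes shared with other myeloid cells and 5 of 5 lysosomal genes.

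**Figure D1:**
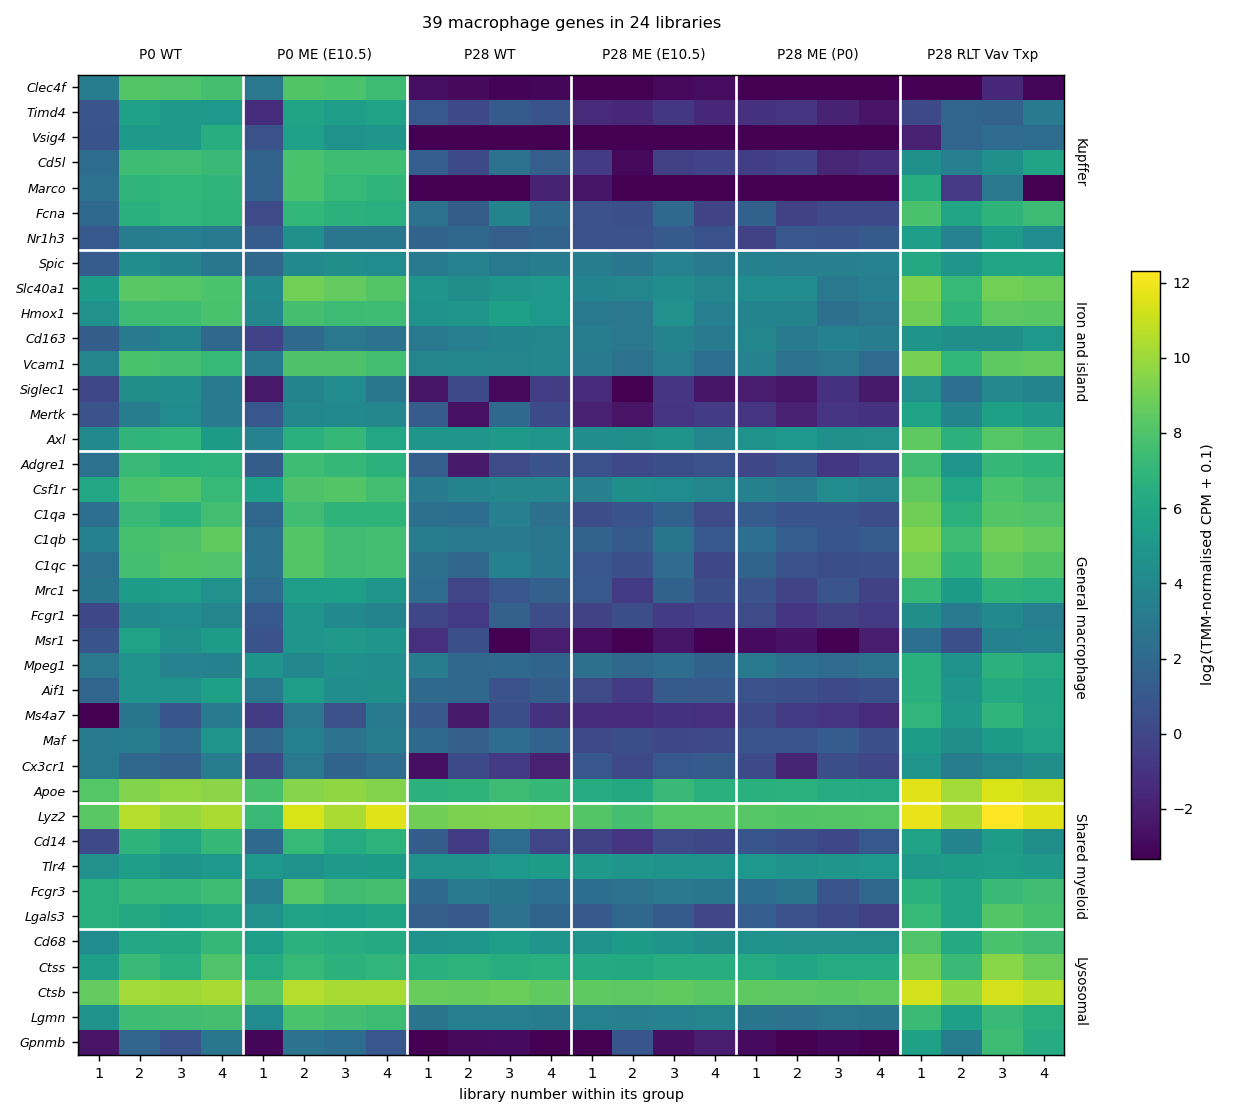
Heat map of the 39 genes (rows, by role) in 24 libraries (columns, by group), as log2 of TMM-normalised CPM plus 0.1. The RLT Vav Txp columns and the P0 columns numbered 2 to 4 are bright for most genes, while Clec4f, in the top row, is bright at P0 and dark in RLT Vav Txp.

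Of the 7 Kupffer genes, RLT Vav Txp held 1 lower (Clec4f) and 1 higher (Nr1h3) than P0 WT by the test. Clec4f (ENSMUSG00000014542, chromosome 6, 83644542 to 83656187 on GRCm38), a C-type lectin restricted to Kupffer cells in mice, stood at 9.33, 283, 259 and 207 CPM in P0 WT libraries 1 to 4 and at 7.35, 272, 236 and 169 CPM in P0 ME. In RLT Vav Txp it stood at 0, 0, 0.232 and 0.018 CPM, which were 0, 0, 10 and 1 reads. Every P0 library was therefore above every RLT Vav Txp library, and in the 12 other P28 libraries Clec4f never passed 0.0559 CPM. RLT Vav Txp against P0 WT gave a log2 fold change of -11.88 (edgeR adjusted p = 0.000104, SE 1.51), the only member called lower in that comparison, where 4.3% of all genes were called lower. The call was lost with limma voom (adjusted p = 0.187) and kept in the other 14 alternatives.

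Cd5l, a secreted protein that protects macrophages from apoptosis, followed Clec4f less sharply. It measured 4.63, 176, 182 and 148 CPM in P0 WT. The P0 ME values were 3.09, 227, 177 and 176 CPM, and RLT Vav Txp held 22.9, 11.1, 23 and 56.2 CPM. In P28 WT it measured 2.46, 1.05, 5.65 and 2.54 CPM, below every RLT Vav Txp library, yet the log2 fold change of 3.25 did not pass the test (edgeR adjusted p = 0.104, SE 1.06). Timd4, a receptor for phosphatidylserine on dying cells, reached 32.7 to 55.5 CPM in P0 libraries 2 to 4 and 1.65 and 0.309 CPM in the P0 libraries numbered 1. RLT Vav Txp libraries held Timd4 at 1.01, 3.3, 2.93 and 8.75 CPM, overlapping the 0.986 to 2.03 CPM of P28 WT (log2 fold change 1.31, edgeR adjusted p = 0.59, SE 0.93). Against P28 ME induced at E10.5, where Timd4 was at 0.229 to 0.486 CPM, it rose by a log2 fold change of 3.69 (edgeR adjusted p = 0.019, SE 1.04). That call was lost in the fits without library 1, 2 or 4 of that ME group or library 4 of RLT Vav Txp.

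Marco, a scavenger receptor, was uneven within the RLT Vav Txp group, at 87.5, 0.51, 7.32 and 0 CPM. The range from 0 to 87.5 CPM overlaps P28 WT, where 3 libraries were at 0 and library 4 at 0.186 CPM. Its call against P28 WT (edgeR adjusted p = 0.0466) was lost in 9 of 14 alternatives, among them the fits without library 1 or 3 of RLT Vav Txp or without any 1 of the P28 WT libraries. At P0 Marco measured 119 to 232 CPM in libraries 2 to 4 and 5.73 and 2.89 CPM in the libraries numbered 1. Vsig4, a complement receptor that clears particles from blood, had 0 reads in all 12 other P28 libraries and 0.175, 3.3, 4.27 and 4.46 CPM in RLT Vav Txp, at least 46.9-fold higher than P28 WT over a floor of 3 counts per library. That call (edgeR adjusted p = 0.0493) was lost in 9 of 13 alternatives, among them the fits without any 1 of the P28 WT libraries or without library 2, 3 or 4 of RLT Vav Txp. Library 1 of RLT Vav Txp was the highest of its group for Marco and the lowest for Vsig4.

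Fcna and Nr1h3 departed from the rest of the Kupffer list. Fcna, the lectin ficolin A, measured 226, 58.7, 115 and 168 CPM in RLT Vav Txp, within or above the 87.7 to 129 CPM of the P0 libraries numbered 2 to 4 except in library 2. Against P28 WT, at 5.9, 2.37, 13.5 and 4.04 CPM, it rose by a log2 fold change of 4.45 (edgeR adjusted p = 0.0242, SE 1.10), and P0 WT and RLT Vav Txp did not differ by the test (log2 fold change 0.73, edgeR adjusted p = 0.697, SE 0.95). The call for Fcna against P28 WT was lost in the fits without P28 WT library 1, 2 or 4 or RLT Vav Txp library 1 or 4. Nr1h3, which codes for the oxysterol receptor LXR-alpha, was higher in RLT Vav Txp (12.3 to 42.8 CPM) than in P0 WT (1.85 to 10.6 CPM) but overlapped P0 ME (2.2, 22.9, 6.97 and 6.89 CPM). Against P0 WT it gave a log2 fold change of 1.89 (edgeR adjusted p = 0.0266, SE 0.54), lost with limma voom, with only the groups compared, and without P0 WT library 1 or RLT Vav Txp library 1 or 3. An antisense transcript overlaps 6.6% of the exonic bases of Fcna, and with the strand setting not given its reads cannot be told apart.

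Of the iron recycling and island genes, 7 of 8 rose in RLT Vav Txp against P28 WT, and Spic and Cd163 were also higher there than in P0 WT. Spic (ENSMUSG00000004359, chromosome 10, 88674772 to 88685015), the transcription factor of iron-recycling macrophages, measured 68.1, 30.7, 59.2 and 59.3 CPM in RLT Vav Txp. All 20 other libraries were lower, at 6.94 to 12.2 CPM in the other P28 groups, at 2.23, 20.4, 12.9 and 7.01 CPM in P0 WT, and for P0 ME at 3.62, 17.6, 21.4 and 18.4 CPM. The log2 fold change was 2.51 against P28 WT (edgeR adjusted p = 0.00179, SE 0.48) and 2.35 against P0 WT (edgeR adjusted p = 0.0017, SE 0.47). Both calls were kept in every alternative. Between P28 WT and P0 WT, Spic gave a log2 fold change of -0.16 (edgeR adjusted p = 0.887, SE 0.45).

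Vcam1 (ENSMUSG00000027962, chromosome 3, 116109949 to 116129688), the adhesion molecule that binds erythroblasts and progenitors, measured 543, 130, 350 and 397 CPM in RLT Vav Txp. It stood at 13.8, 15.4, 13.7 and 15 CPM in P28 WT, so the groups were far apart, and the log2 fold change was 4.61 (edgeR adjusted p = 0.00267, SE 0.84). P0 WT held 13.9, 229, 201 and 141 CPM and P0 ME 9.05, 247, 243 and 190 CPM, overlapping RLT Vav Txp (log2 fold change of RLT Vav Txp against P0 WT 1.28, edgeR adjusted p = 0.312, SE 0.74). Slc40a1, the iron exporter ferroportin, gave 609, 143, 510 and 436 CPM in RLT Vav Txp against 28.2, 21.4, 31.4 and 31.9 CPM in P28 WT, a log2 fold change of 3.91 (edgeR adjusted p = 0.00388, SE 0.75). In P0 WT it measured 39.7, 326, 297 and 234 CPM and in P0 ME 17.9, 507, 372 and 280 CPM, again overlapping RLT Vav Txp.

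Hmox1, which opens the heme ring to free its iron, measured 479, 122, 329 and 322 CPM in RLT Vav Txp and 25.5, 30.8, 46.7 and 32.5 CPM in P28 WT, with no overlap (log2 fold change 3.21, edgeR adjusted p = 0.0116, SE 0.71, lost without P28 WT library 1 or 2). Its P0 values were 23.8, 166, 179 and 229 CPM in WT and 14.9, 210, 172 and 174 CPM in ME. The receptor tyrosine kinase Axl, which takes part in clearing apoptotic cells, stood at 353, 108, 290 and 224 CPM in RLT Vav Txp against 29.3 to 34.3 CPM in P28 WT (log2 fold change 2.96, edgeR adjusted p = 0.00534, SE 0.60). Axl at P0 spanned 12.3 to 135 CPM, so library 2 of RLT Vav Txp lay within that range and the other 3 above it. Its relative Mertk rose as well, from at most 3.94 CPM in P28 WT to 13.2 to 54.7 CPM, and so did Siglec1, the sialic acid receptor CD169, from at most 0.986 CPM to 5.11 to 23.6 CPM, although the call for Siglec1 was lost without P28 WT library 1, 3 or 4. Cd163, the scavenger receptor for haemoglobin bound to haptoglobin, measured 21.8 to 32.3 CPM in RLT Vav Txp and 7.77 to 14.3 CPM in P28 WT. It did not pass the test in that comparison (log2 fold change 1.16, edgeR adjusted p = 0.203, SE 0.47), while against P0 WT (2.31 to 13.2 CPM) it rose by 1.92 on the log2 scale (edgeR adjusted p = 0.0111, SE 0.48).

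**Figure D2:**
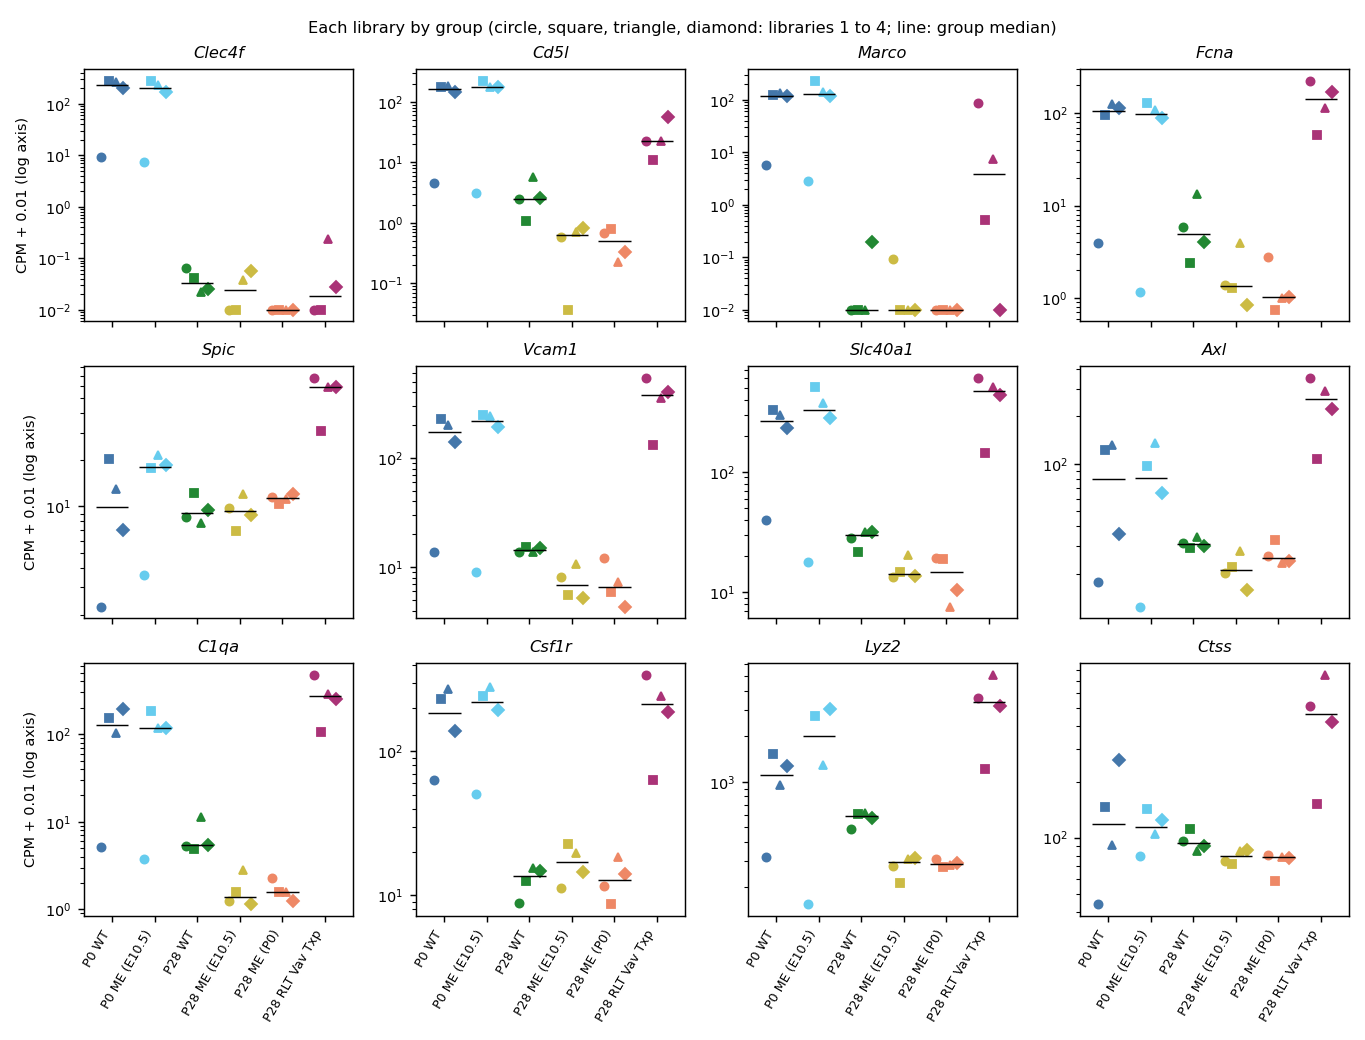
CPM plus 0.01 on a log axis for 12 members in each library, by group, with a line at each group's median. Clec4f is near 0 in every P28 group, RLT Vav Txp included, while Spic is highest in the 4 RLT Vav Txp libraries and Vcam1, Slc40a1, C1qa and Csf1r are high both there and in the P0 libraries numbered 2 to 4.

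General macrophage genes had the largest median log2 fold change of the 5 lists between RLT Vav Txp and P28 WT, at 4.89. The C1q chains, which start the classical complement cascade, lie side by side on chromosome 4 of GRCm38: C1qb (ENSMUSG00000036905, 136880129 to 136886187), C1qc (ENSMUSG00000036896, 136889804 to 136893065) and C1qa (ENSMUSG00000036887, 136895917 to 136898803). C1qa measured 478, 105, 287 and 253 CPM in RLT Vav Txp and 5.28, 4.84, 11.3 and 5.49 CPM in P28 WT (log2 fold change 5.37, edgeR adjusted p = 0.00292, SE 0.99). C1qb gave 678, 174, 478 and 394 CPM against 9.23, 8.41, 8.97 and 7.07 CPM (log2 fold change 5.68, edgeR adjusted p = 0.00213, SE 1.01). For C1qc the values were 511, 115, 367 and 274 CPM against 5.48, 3.51, 11.6 and 6.88 CPM (log2 fold change 5.52, edgeR adjusted p = 0.00457, SE 1.08). None of the 3 chains overlapped between these groups, and each had its lowest RLT Vav Txp value in library 2. At P0 the 3 chains summed to 22.9, 576, 615 and 817 CPM in WT and 15.5, 754, 492 and 514 CPM in ME, against 1670, 393, 1130 and 922 CPM in RLT Vav Txp, which overlapped.

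Csf1r, the receptor for the macrophage growth factor CSF1, measured 343, 62.9, 242 and 188 CPM in RLT Vav Txp, 8.81, 12.5, 15.3 and 14.8 CPM in P28 WT and 62.8, 231, 274 and 140 CPM in P0 WT. The P0 ME libraries held 50.4, 245, 283 and 195 CPM. Csf1r was 4.02 higher in RLT Vav Txp than in P28 WT on the log2 scale (edgeR adjusted p = 0.000142, SE 0.55), a call kept in every alternative. Exons of a gene on the other strand cover 15.1% of its exonic bases. Adgre1, which codes for F4/80, stood at 182, 29.6, 136 and 119 CPM in RLT Vav Txp and at 2.6, 0.123, 1.12 and 1.47 CPM in P28 WT (log2 fold change 6.45, edgeR adjusted p = 0.00204, SE 1.14), a call lost with limma voom (adjusted p = 0.155). P0 WT held Adgre1 at 5.71, 153, 101 and 109 CPM and P0 ME at 2.38, 174, 134 and 108 CPM, so birth and RLT Vav Txp overlapped.

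Apoe, the lipid carrier secreted by many macrophages, rose to 3170, 1140, 2790 and 2150 CPM in RLT Vav Txp from 107, 117, 171 and 134 CPM in P28 WT (log2 fold change 4.13, edgeR adjusted p = 8.86e-07, SE 0.39). It also exceeded P0 WT, at 296, 647, 869 and 781 CPM, in every library (log2 fold change 1.84, edgeR adjusted p = 0.00153, SE 0.36). Apoe, Spic and the pore-forming protein gene Mpeg1 were the 3 members whose call against P0 WT held in every alternative. Mpeg1 reached 26.5 to 104 CPM in RLT Vav Txp, 7.36 to 26.7 CPM in P0 WT and 3.26 to 9.65 CPM in P28 WT. Ms4a7, a membrane-spanning protein of tissue macrophages, measured 34.8 to 124 CPM in RLT Vav Txp and at most 8.96 CPM in every other library of the series. Its log2 fold change was 6.50 against P28 WT (edgeR adjusted p = 0.00302, SE 1.22) and 4.34 against P0 WT (edgeR adjusted p = 0.0155, SE 1.09). Mrc1, Fcgr1, Aif1, Maf and Cx3cr1 also rose against P28 WT, by 3.37 to 5.38 on the log2 scale. Msr1, scavenger receptor A, was the general gene that did not pass, at 1.32 to 12.8 CPM against 0 to 1.29 CPM (log2 fold change 4.24, edgeR adjusted p = 0.058, SE 1.23).

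Of the genes shared with monocytes and granulocytes, 4 of 5 rose in RLT Vav Txp against P28 WT. Lyz2, lysozyme M, measured 3610, 1220, 5120 and 3180 CPM in RLT Vav Txp against 490, 610, 617 and 579 CPM in P28 WT (log2 fold change 2.51, edgeR adjusted p = 0.0187, SE 0.60), a call lost without any 1 of the P28 WT libraries or RLT Vav Txp library 3. Its P0 values were 316, 1520, 958 and 1270 CPM in WT and 155, 2730, 1300 and 3050 CPM in ME, and reads may be split with its near-identical neighbour Lyz1. Fcgr3, a low-affinity IgG receptor with close relatives, gave 101, 58.8, 154 and 182 CPM against 4.14 to 9.06 CPM in P28 WT (log2 fold change 4.30, edgeR adjusted p = 0.000541, SE 0.67). Lgals3, galectin-3, was at 145, 60.5, 279 and 220 CPM against 1.94 to 5.96 CPM (log2 fold change 5.68, edgeR adjusted p = 1.13e-06, SE 0.54). Cd14, part of the lipopolysaccharide receptor, rose to 51.3, 12.5, 39.1 and 21.8 CPM from 0.555 to 4.54 CPM (log2 fold change 3.88, edgeR adjusted p = 0.0456, SE 1.06), and its call was lost in the fits without any 1 of the P28 WT libraries or RLT Vav Txp library 1, 3 or 4. Tlr4, the signalling receptor for lipopolysaccharide, was the exception and stood at 24.1 to 42.6 CPM over all 24 libraries (log2 fold change 0.27 against P28 WT, edgeR adjusted p = 0.574, SE 0.19).

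Among lysosomal genes, Ctsb (cathepsin B) measured 2410, 818, 2450 and 1730 CPM in RLT Vav Txp and 404, 390, 439 and 367 CPM in P28 WT (log2 fold change 2.21, edgeR adjusted p = 0.000792, SE 0.37). Ctss (cathepsin S) gave 510, 151, 754 and 421 CPM against 96.5, 111, 84.5 and 89.9 CPM (log2 fold change 2.27, edgeR adjusted p = 0.0014, SE 0.40). These proteases are made by many cell types, and both were well above 0 in the marrow groups whose C1q was low. Cd68, the lysosomal glycoprotein macrosialin, rose to 262, 75.4, 228 and 182 CPM from 25.8, 30, 41.2 and 28.2 CPM (log2 fold change 2.58, edgeR adjusted p = 0.000453, SE 0.41). Lgmn, the protease legumain, rose to 163, 44.6, 157 and 94.5 CPM from 6.49, 10.8, 10.8 and 9.43 CPM (log2 fold change 3.61, edgeR adjusted p = 0.00153, SE 0.63). Gpnmb, a glycoprotein of lysosome-rich macrophages, stood at 48.5, 9.41, 172 and 82.4 CPM in RLT Vav Txp, at least 1200-fold above P28 WT, where no library had over 3 reads (edgeR adjusted p = 0.00168, but 0.101 with limma voom). No other library of the series passed 6.9 CPM for Gpnmb. A gene on the other strand covers 12.8% of the exonic bases of Ctsb.

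**Figure D3:**
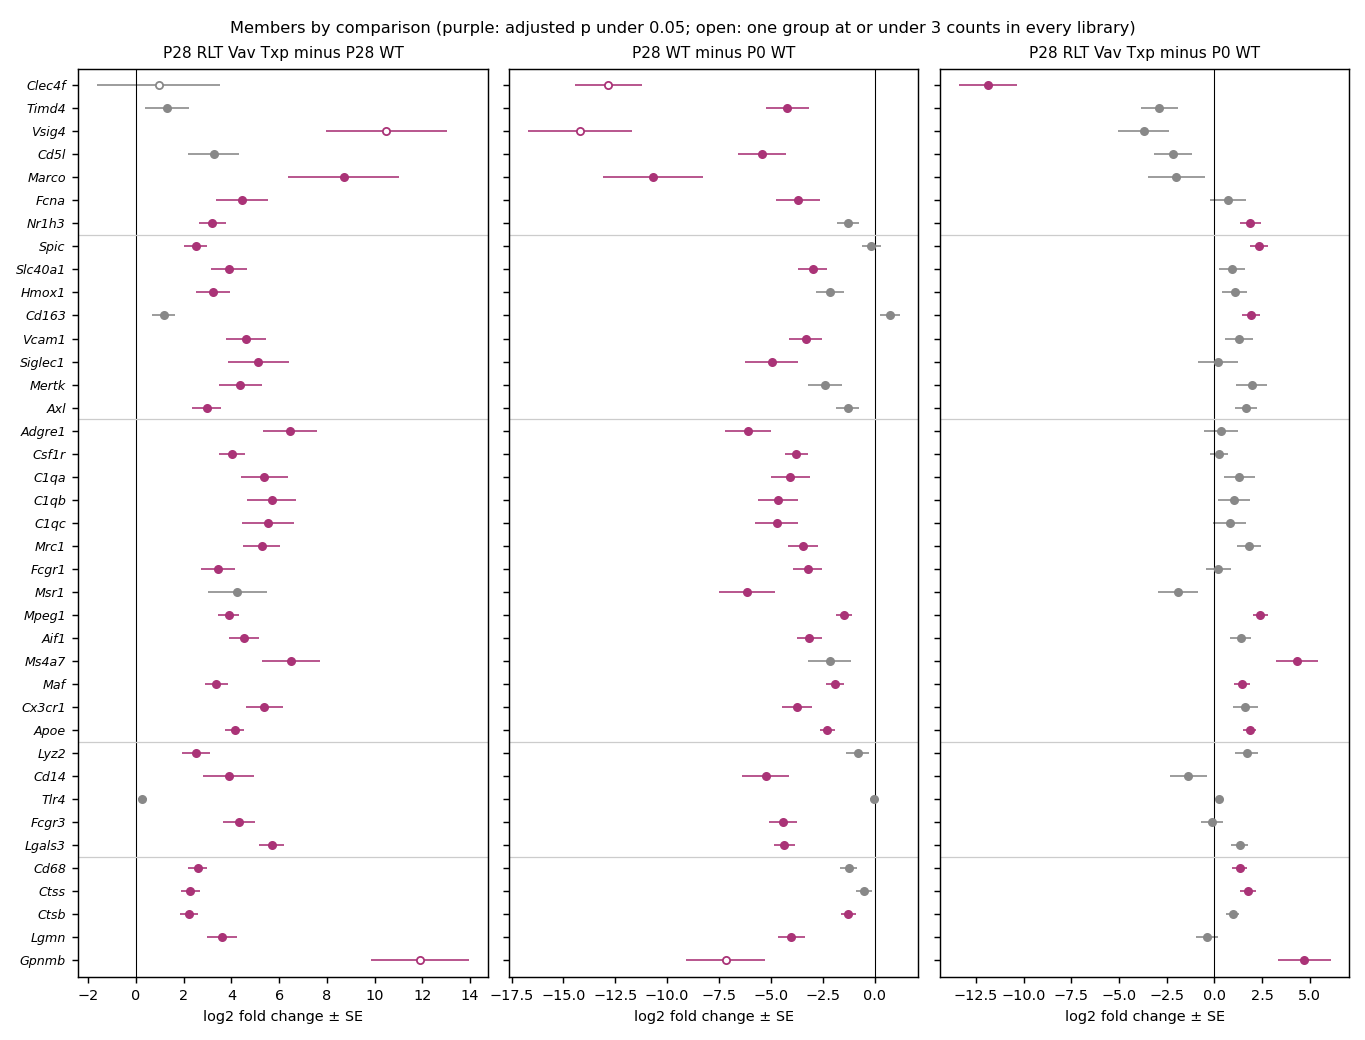
Log2 fold changes with SE for the 39 members, in RLT Vav Txp minus P28 WT, P28 WT minus P0 WT and RLT Vav Txp minus P0 WT, with called members in purple and open points where a group held at most 3 reads per library. All 39 lie above 0 in the first panel, and in the last panel 30 lie above 0 and 9 below, the latter led by Clec4f.

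RLT Vav Txp marrow compared directly with P0 WT liver had 10 members called higher beside 4.69% of all genes. These were Nr1h3, Spic, Cd163, Mpeg1, Ms4a7, Maf, Apoe, Cd68, Ctss and Gpnmb. The calls for Maf, Cd68 and Gpnmb were lost in several fits that left out 1 library of either group. Without library 3 of RLT Vav Txp, 6 rose and 1 fell, beside 3.41% and 2.68% of all genes. Without the P0 libraries numbered 1, a choice made after seeing the data, 12 rose and 5 fell, beside 6.42% and 5.53%, the latter being Clec4f, Cd5l, Vsig4, Cd14 and Timd4. DESeq2 called 15 higher and 3 lower, beside 7.12% and 7.09%. A fit of these 2 groups alone called Apoe, Spic and Mpeg1 higher, beside 1.75%, and Clec4f lower, beside 1.18%.

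To compare the makeup of the macrophage signal rather than its size, each member was set against the summed C1q chains of the same library, as CPM per 100 CPM of C1q. Of 36 members, 10 were higher in all 8 P0 libraries than in all 4 RLT Vav Txp libraries, beside 2.61% of the 23056 tested genes other than C1q. They were the Kupffer genes Clec4f, Timd4, Vsig4, Cd5l and Marco, with Adgre1, Msr1, Cd14, Fcgr3 and Lgmn. Cd14 and Fcgr3 are shared with monocytes and granulocytes. Neutrophil markers summed to 11400 to 38700 CPM in the P0 libraries numbered 2 to 4 and to 2030 to 6550 CPM in RLT Vav Txp. The part of such cells in these ratios was not tested. Clec4f ran from 25.4 to 49.2 per 100 C1q at P0, the libraries numbered 1 included, and from 0 to 0.0205 in RLT Vav Txp. Cd5l ran from 18.1 to 35.9 at P0 and from 1.37 to 6.09 in RLT Vav Txp. Vsig4 ran from 5.29 to 10.6 at P0 and from 0.0105 to 0.84 in RLT Vav Txp. The 5 Kupffer genes therefore stood far lower for a given amount of C1q in RLT Vav Txp than in the P0 libraries. In the other P28 libraries, where C1q was low, the 5 genes did not share 1 pattern. Timd4 ran there from 1.68 to 9.23 per 100 C1q, overlapping P0 and above every RLT Vav Txp library. Cd5l ran from 0.541 to 20.0, overlapping both. Clec4f ran from 0 to 1.14, Marco from 0 to 1.39, and Vsig4 was at 0.

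Only Ms4a7 and Gpnmb showed the opposite order without overlap, beside 0.438% of those genes. Ms4a7 ran from 7.21 to 10.7 per 100 C1q in RLT Vav Txp and from 0 to 3.69 at P0, and Gpnmb from 2.39 to 15.2 and from 0.0996 to 1.02. The other 24 members overlapped, and none of the 8 iron and island genes separated the groups. Vcam1 spanned 30.9 to 43.1 in RLT Vav Txp and 17.2 to 60.5 at P0, Hmox1 28.8 to 34.9 and 27.9 to 104, and Fcna 10.1 to 18.3 and 7.37 to 21.9. Leaving out the P0 libraries numbered 1, a choice made after seeing the data, gave 10 members higher at P0, beside 2.88% of those genes, and 6 higher in RLT Vav Txp, beside 1.46%, with Mpeg1, Aif1, Cx3cr1 and Apoe added. In the P0 libraries numbered 1, where C1q was low, the ratio was high for members that were less reduced than C1q, at up to 2050 for Ctsb and 212 for Tlr4. The ratio is a description of these libraries, and no test was made of it.

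**Figure D4:**
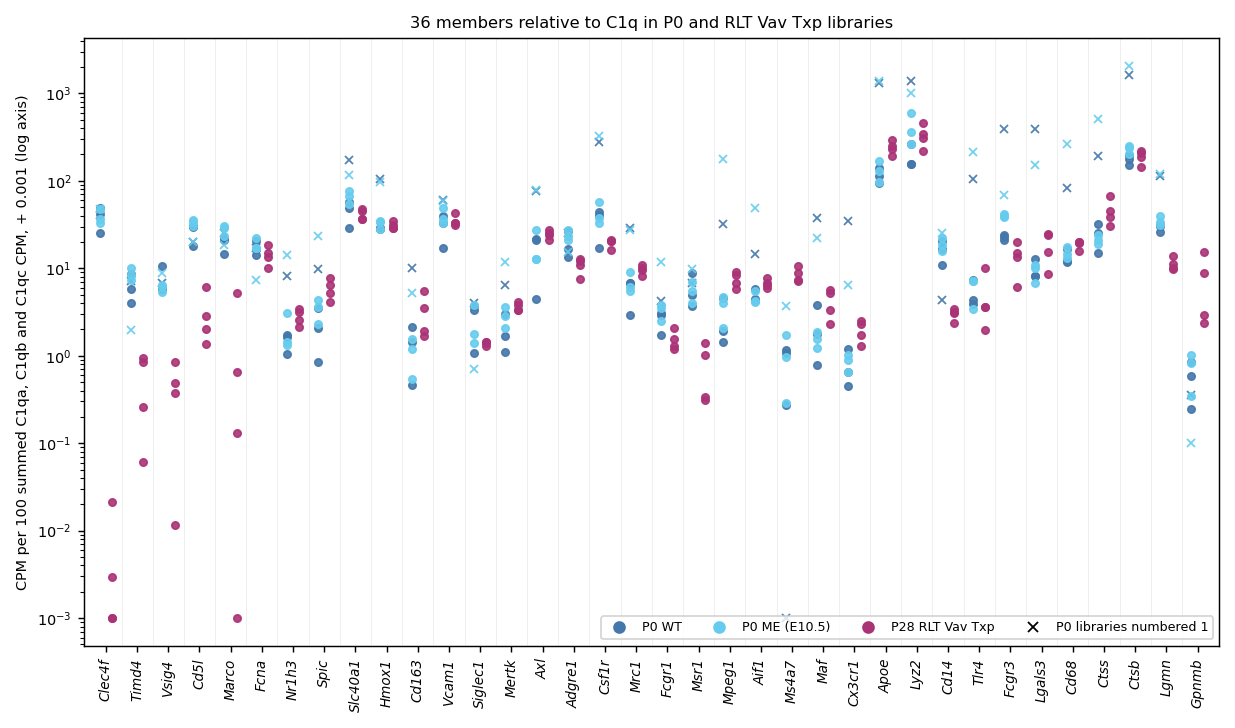
CPM of 36 members per 100 CPM of summed C1qa, C1qb and C1qc, plus 0.001 on a log axis, in each P0 and RLT Vav Txp library, with crosses for the P0 libraries numbered 1. Clec4f, Timd4, Vsig4, Cd5l and Marco sit lower in RLT Vav Txp, Ms4a7 and Gpnmb sit higher, and the island genes overlap.

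From birth liver to day 28 marrow, macrophage genes fell in both genotypes. In WT, 28 of 39 members fell and none rose, beside 4.56% of all genes called lower, with a median log2 fold change of -3.46 beside -0.07. In ME induced at E10.5, 33 fell beside 8.45% of all genes, with a median of -4.17 beside -0.18. Some members passed the filter only through P0: of those at its level in every library of both ages, 20 of 29 fell in WT and 26 of 31 in ME. The WT falls took in 6 of 7 Kupffer genes, 3 of 8 iron and island genes, 13 of 14 general genes, 3 of 5 shared myeloid genes and 3 of 5 lysosomal genes. Clec4f was at least 2920-fold lower in P28 WT than in P0 WT, and Vsig4 at least 611-fold lower, against a floor of 3 counts per library. Csf1r fell by 3.78 on the log2 scale in WT (edgeR adjusted p = 0.000216, SE 0.55) and by 3.51 in ME (edgeR adjusted p = 0.000193, SE 0.54). Limma voom with quality weights called 8 of the 28 WT falls, beside 3.18% of all genes called lower. In every alternative 7 of the 28 were kept (Vsig4, Csf1r, Aif1, Apoe, Fcgr3, Lgals3 and Lgmn). Without the P0 libraries numbered 1, a choice made after seeing the data, 35 fell in each genotype, beside 6.55% of all genes called lower in WT and 10.2% in ME.

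Apart from RLT Vav Txp, 1 member was called between ME and WT of the same age. At P0, none of 39 was called between ME and WT, beside 0.642% of all genes, and DESeq2 and limma voom called 0 too. No member reached an unadjusted p under 0.05 there, beside 3251 of 23059 genes. The members' log2 fold changes lay between -0.80 and 0.83, with 23 above 0. At P28, ME induced at E10.5 lowered 1 member against WT, beside 4.44% of all genes called lower. This was Maf, a transcription factor of resident macrophages, at 4.08, 2.56, 4.75 and 2.94 CPM in P28 WT and 0.996, 1.27, 0.928 and 0.984 CPM in ME (log2 fold change -1.78, edgeR adjusted p = 0.0118, SE 0.45). The Maf groups did not overlap and the call was kept in all 16 alternatives, although 5.3% of its exonic bases are shared with an antisense transcript. ME induced at P0 gave 1.64, 1.66, 2.28 and 1.3 CPM of Maf and did not pass (log2 fold change -1.06, edgeR adjusted p = 0.173, SE 0.44).

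Most other members also lay lower in P28 ME than in P28 WT, mostly without passing the test. Against P28 WT, 34 of 39 log2 fold changes were below 0 for induction at E10.5 (median -0.69 beside -0.10 over all genes), and 34 were below 0 for induction at P0 (median -0.96 beside -0.09). For induction at P0 no member was called, beside 1.57% of all genes. An unadjusted p under 0.05 was reached by 8 of 39 members and by 4648 of all 23059 genes, a similar share. C1qa lay further apart than that median: P28 WT held 4.84 to 11.3 CPM, ME induced at E10.5 1.14 to 2.77 CPM and ME induced at P0 1.22 to 2.26 CPM, groups that did not overlap (log2 fold changes -2.0 and -2.04, edgeR adjusted p = 0.153 and 0.206). With only the groups compared, 16 members fell for E10.5, beside 16.6% of all genes called lower in that fit, and 18 for P0, beside 14.1%. DESeq2 called 6 lower and 2 higher for E10.5, beside 8.83% and 7.98% of all genes, and 5 lower for P0, beside 5.35%. The comparisons share the same 4 WT libraries. Between the inductions themselves no member was called, beside 0.0477% of all genes, while DESeq2 called 1 (Marco) and limma voom 0. There 1 member had an unadjusted p under 0.05, beside 998 of 23059 genes. The ME effect at P28 differed from that at P0 for no member, beside 0.72% of all genes, with 0 called by DESeq2 or limma voom. An unadjusted p under 0.05 was reached by 3 members, beside 3815 of 23059 genes. Leaving out library 4 of P0 WT gave a call for Maf in that comparison, and leaving out the P0 libraries numbered 1 gave a call for Lyz2.

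Per kilobase of exon, which allows genes to be ranked within a group, Lyz2 led the members in every group. In RLT Vav Txp it averaged 2490 CPM per kilobase, followed by Apoe at 1080 and C1qb at 396. In P0 WT the first 3 were the same, at 772, 303 and 195 CPM per kilobase. In P28 WT Lyz2 averaged 436 CPM per kilobase and was followed by Ctss at 70.3, Ctsb at 66.1 and Apoe at 61.8, with C1qb at 7.74.

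Of 23 other macrophage genes, 13 rose in RLT Vav Txp against P28 WT, beside 2.64% of all genes, and none fell. From P0 WT to P28 WT, 12 fell, beside 4.56%, and 1 rose, beside 719 of 23059 genes. Among regulators of macrophage fate, Irf8, a transcription factor of monocytes, macrophages and dendritic cells, rose to 152, 60, 77.1 and 118 CPM in RLT Vav Txp from 17.7 to 30.5 CPM in P28 WT (log2 fold change 1.94, edgeR adjusted p = 0.000158, SE 0.29). Irf8 was also called higher in P28 ME induced at E10.5 than in P28 WT. The P28 groups with ME induced at E10.5 or P0 held it at 31.8 to 66.4 CPM, overlapping RLT Vav Txp. Pparg, a lipid-sensing nuclear receptor named after its values were seen, rose to 27.2, 7.53, 33.6 and 14.3 CPM from 2.6 to 4.71 CPM (log2 fold change 2.41, edgeR adjusted p = 0.0192, SE 0.61). Spi1, which codes for PU.1 and is also active in progenitors, did not pass (134 to 222 CPM against 183 to 243 CPM, log2 fold change -0.29, edgeR adjusted p = 0.448, SE 0.16).

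Markers of other cells moved along with the macrophage genes, and their part in the results was not tested. For the counts against P28 WT below, 2.64% of all genes were called higher in RLT Vav Txp and 342 of 23059 lower. Dendritic cell markers summed to 2840 to 5440 CPM over 8 genes in RLT Vav Txp against 105 to 267 CPM in the other P28 libraries. The 3 of 8 that rose against P28 WT were the MHC class II genes Cd74, H2-Aa and H2-Ab1, which macrophages and B cells also express. Monocyte markers summed to 542 to 1630 CPM against 241 to 745 CPM (3 of 6 rose), megakaryocyte markers to 195 to 370 CPM against 26.3 to 61.5 CPM (2 of 4 tested rose), and stromal markers to 29.3 to 149 CPM against 2.15 to 13.4 CPM (1 of 6 rose). The megakaryocyte genes that rose were Pf4, at 93.1 to 240 CPM, and Itga2b, at 56.4 to 99.8 CPM, while Gp9 and Ppbp overlapped the other P28 libraries. Most of the stromal sum was Cxcl12, the gene called, at 22.3 to 131 CPM against 0.531 to 11.8 CPM. Col1a1 and Lepr overlapped the other P28 libraries, and Dcn (0.803 to 4.91 CPM against 0 to 0.5 CPM) did not. Neutrophil markers summed to 2030 to 6550 CPM against 657 to 1780 CPM and erythroid markers to 1150 to 2420 CPM against 183 to 771 CPM, with 0 of 10 and 1 of 9 called. LSK markers summed to 2410 to 3400 CPM against 4640 to 5770 CPM, with Cd34, Flt3 and Hlf lower than in P28 WT and Slamf1, named after its values were seen, higher. Hepatocyte markers, which would come with liver, summed to 17.6 to 47.2 CPM in RLT Vav Txp and 11.2 to 23.1 CPM in the other P28 libraries. Most of the sum was Afp, at 17.3 to 46.2 CPM against 10.8 to 21.0 CPM. Alb ran from 0 to 4.76 CPM in RLT Vav Txp and from 0 to 3.72 CPM in the other P28 libraries.

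The 6 P0 libraries numbered 2 to 4, where the macrophage genes were high, carried neutrophil markers at 11400 to 38700 CPM, erythroid markers at 5360 to 17900 CPM, monocyte markers at 985 to 3290 CPM and hepatocyte markers at 110 to 282 CPM. Libraries numbered 1 carried neutrophil markers at 894 CPM in WT and 844 CPM in ME, hepatocyte markers at 67.2 and 28.2 CPM, and mast cell and basophil markers at 3790 and 40.2 CPM. LSK markers went the other way, at 5010 CPM in WT library 1 and 5400 CPM in ME library 1. They summed to 2390 to 3630 CPM in the 6 P0 libraries numbered 2 to 4. The P28 libraries other than RLT Vav Txp held 4640 to 5770 CPM. Between P0 WT and P28 WT, 8 of 10 neutrophil, 8 of 9 erythroid, 5 of 6 monocyte, 6 of 8 hepatocyte and 5 of 5 B lymphoid markers fell with the macrophage genes, as did 3 of 6 mast cell and basophil markers, beside 4.56% of all genes. No tested gene of the dendritic, endothelial, stromal, megakaryocyte, osteoclast or T and NK lists was called in that comparison, and 4 of 10 LSK markers rose, beside 719 of 23059 genes. Against P28 WT, RLT Vav Txp raised 1 of 6 mast cell and basophil markers, beside 2.64% of all genes called higher. It lowered 1 of 7 endothelial markers, beside 342 of 23059 genes called lower, and gave no call for B lymphoid, osteoclast, T and NK or hepatocyte markers. Against P28 ME induced at E10.5, where more of all genes were called higher (8.5%), these counts were larger or the same. They were 5 of 5 B lymphoid (summed at 26 to 53 CPM against 4.65 to 7.25 CPM), 7 of 8 dendritic, 3 of 6 monocyte, 3 of 6 mast cell and basophil, 2 of 4 tested megakaryocyte and 1 of 8 hepatocyte markers.

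**Figure D5:**
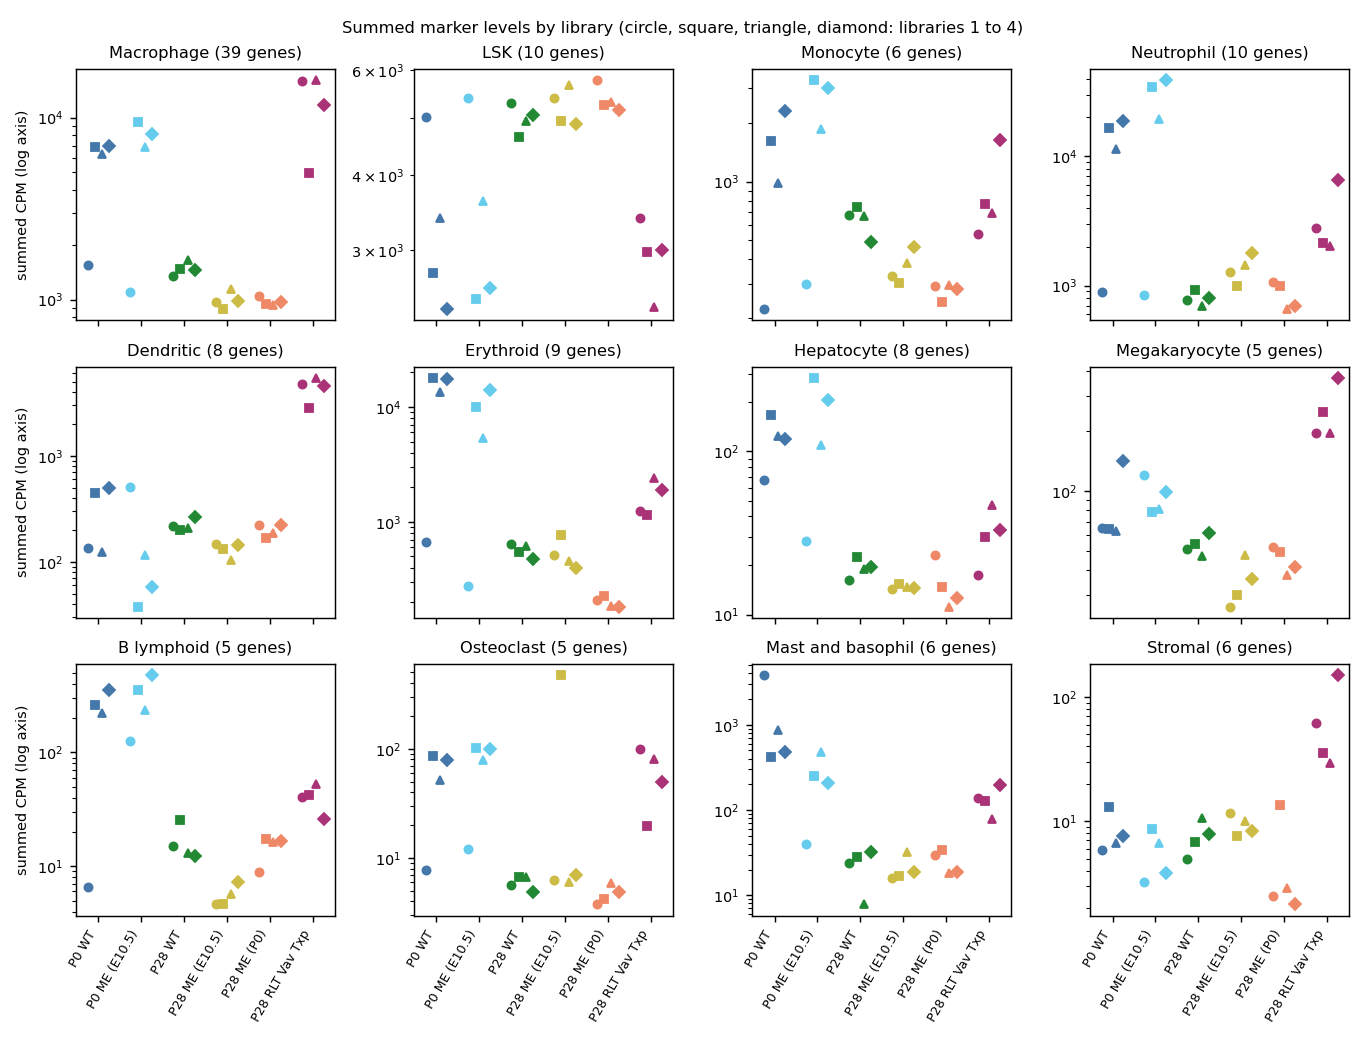
Summed CPM per library on a log axis for the 39 members and for marker lists of 11 cell types, by group. RLT Vav Txp is high for the macrophage, dendritic, megakaryocyte and stromal lists, the last mostly through Cxcl12. The P0 libraries numbered 2 to 4 are high for the macrophage, neutrophil, erythroid, hepatocyte and B lymphoid lists. Library 1 (circle) is the lowest of each P0 group in these P0 lists.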

How the data were processed

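RNA of 24 libraries was extracted with Qiagen RNeasy Plus and amplified with a Clontech SMARTer kit, per the labels' protocols. The authors deposited raw counts per Ensembl gene; the submitters' processing notes name STAR 2.7.9a, Subread, featureCounts 2.0.3 and GRCm38, and the strand setting is not given in the sources used here. Of 55774 rows, 287 exact repeats were dropped, leaving 55487 IDs. Coordinates are from GENCODE M21.

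Counts were filtered with filterByExpr (minimum count 10), which kept 23059 genes, scaled by TMM and tested with edgeR 4.0.16 (robust quasi-likelihood F-test, 1 mean per group, 18 residual degrees of freedom, R 4.3.3). P-values were Benjamini-Hochberg adjusted over all 23059 genes in each of 10 comparisons and called under 0.05. SE is the absolute log2 fold change over the square root of F. A group with at most 3 counts in every library is at the floor (0.0333 to 0.0924 CPM by library), and its fold is given as a bound. Alternatives were RLE scaling, library totals, no filter, DESeq2 1.42.0, limma 3.58.1 (voom), only the groups compared, a replicate block, and each library left out. Data were simulated for RLT Vav Txp against P28 WT over 23059 genes, with changes set only in genes above 1 CPM. Of these, 19 of 67 changed 2-fold, 46 of 67 changed 4-fold and 57 of 66 changed 8-fold were recovered. Of 22859 unchanged genes, 4 were called. Each simulated gene had the trended spread and no library was made to stand apart, so the recovery does not describe members with outlying libraries.

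The members and lists were chosen with earlier results of these data known. Values in every library are given for called members, at most 4 per list by mean CPM, and for defining genes; genes outside the 39 are at most 4 per list by mean CPM, except where said. Results for 1 further gene of the regulator list are not reported here.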

Additional observations from a re-analysis of the deposited data

Results flagged for a closer look

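Values of 24 members were screened in each of the 6 groups, 144 sets of 4 libraries, for a highest or lowest library standing far from the other 3 (above Dixon's 95% critical value). Chance flags about 1 in 20 such sets, and 37 were flagged. Library 1 was the lowest in 13 sets of P0 WT and in 18 sets of P0 ME.

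In P0 WT library 1, the Kupffer genes Clec4f (9.33 CPM), Cd5l (4.63 CPM), Marco (5.73 CPM), Fcna (3.94 CPM) and Timd4 (1.65 CPM) stood apart. So did Slc40a1 (39.7 CPM), Hmox1 (23.8 CPM), Adgre1 (5.71 CPM), C1qb (11.8 CPM), C1qc (5.87 CPM), Cd14 (0.986 CPM), Ctsb (372 CPM) and Lgmn (25.7 CPM). In P0 ME library 1, Clec4f (7.35 CPM), Cd5l (3.09 CPM), Marco (2.89 CPM), Fcna (1.14 CPM) and Timd4 (0.309 CPM) stood apart. The same library was low for Spic (3.62 CPM), Vcam1 (9.05 CPM), Hmox1 (14.9 CPM), Adgre1 (2.38 CPM), C1qa (3.71 CPM), C1qb (5.82 CPM), C1qc (6.0 CPM) and Apoe (217 CPM), and for Fcgr3 (10.7 CPM), Lgals3 (23.7 CPM), Cd14 (3.91 CPM), Ctsb (319 CPM) and Lgmn (18.3 CPM).

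The other 6 flags were spread over the P28 groups. P28 WT gave a highest value for C1qa in library 3 (11.3 CPM) and for Marco in library 4 (0.186 CPM). ME induced at E10.5 gave a highest value for Marco in library 1 (0.083 CPM) and a lowest for Cd5l in library 2 (0.0264 CPM). In both Marco sets the other libraries of the group had 0 reads, so any reads would have been flagged. ME induced at P0 gave a highest value for C1qc in library 1 (3.24 CPM) and a lowest for Ctss in library 2 (58.7 CPM).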

How the results depend on the processing

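No call of a member reversed direction under any alternative. Of 143 calls over all comparisons, RLE scaling and DESeq2 kept 143 each, library totals 141, no filter 131 and limma voom 110, and fits of only the groups compared kept 124 of 140. For P28 ME induced at E10.5 against P28 WT (1 call), DESeq2 called 8 members and only the groups compared 16, with 1 to 3 when a library was left out, the 3 without P28 WT library 2. For induction at P0 against P28 WT (0 calls), the same alternatives gave 5 and 18, and 0 whichever library was left out. Between the inductions (0 calls) they gave 1 and 1, each lower, beside 0.186% and 3.43% of all genes called lower, and 0 without a library. For P28 WT against P0 WT (28 calls), limma voom called 8, beside 3.18% of all genes called lower, and leaving out a library gave 21 to 32. For the ME effect at P28 against that at P0 (0 calls), 1 was called without the P0 libraries numbered 1, an alternative chosen after seeing the data, and 0 to 1 without a library. For RLT Vav Txp against P0 WT (11 calls), DESeq2 called 18, only the groups compared 4, and 17 were called without the P0 libraries numbered 1, with 7 to 13 without a library. Leaving out a library gave 26 to 33 calls for RLT Vav Txp against P28 WT, 34 to 37 against ME induced at E10.5, 30 to 33 for ME at P28 against P0, and 0 for P0 ME against P0 WT. The share of all genes called moved between fits as well. Without library 3 of RLT Vav Txp, 2% of all genes were called higher against P28 WT and 4.79% against ME induced at E10.5. Shares for most other fits without a library are not given here, so those counts stand alone. The cause of these shifts was not tested.

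It was not settled whether replicate numbers pair the 20 numbered libraries. Of 40 same-number pairs, 14 had a correlation of deviations over 0.1 (from -0.394 to 0.66, median 0.0295). Of 120 pairs with different numbers, 31 did (from -0.49 to 0.402, median -0.0203). No test was made of the difference. With the replicate block 59 of 62 calls were kept, and with no replicate block in the same libraries 61 of 62. The block gave 27 calls for P28 WT against P0 WT and 32 for ME at P28 against P0, 1 for ME induced at E10.5 against P28 WT, and 0 in the others.

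Depth limits the members with at most 3 counts in every library of a group, for which folds are bounds only.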

Other observations

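Library 2 of P28 ME induced at E10.5 stood out for genes of osteoclasts, the bone-resorbing relatives of macrophages. Ctsk was at 147 CPM there and at most 0.243 CPM in the other 3 libraries of its group, Acp5 at 116 CPM against 3.88 to 5.01 CPM, and Mmp9 at 198 CPM against 0.771 to 2.49 CPM. Most of the 39 macrophage genes were not highest of their group there, and the share over all genes was not counted. In a group of 4 libraries each library is highest for some genes, so 6 of 39 members by itself sets nothing apart. The 6 that were highest in library 2 were Gpnmb at 1.75 CPM, Csf1r at 22.5 CPM (11.1 to 19.6 CPM in the other 3), Cd68 at 36.7 CPM (21.3 to 27.3 CPM), Lgals3 at 3.82 CPM (0.869 to 2.03 CPM), Fcgr1 at 1.24 CPM (0.586 to 0.778 CPM) and Maf at 1.27 CPM (0.928 to 0.996 CPM). C1qa at 1.56 CPM was within the range of the other 3 and Adgre1 at 0.989 CPM below it. Library 2 was picked out after its values were seen, and no test was made of this library against the others. In the comparison of ME induced at E10.5 with P28 WT, 2 of 4 osteoclast markers tested (Ctsk and Mmp9) were called higher, beside 1804 of 23059 genes. The high values of both were in library 2 alone.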
